A study of Mus musculus with 88 samples.

Results

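The naive cortex of this mouse series consisted of 26 RNA-seq libraries from 13 animals, out of 88 libraries from 44 animals in all. The animals were chosen by the treatment named naive in the labels, and each gave 1 punch of 4 mm from the right and 1 from the left cortex. Naive animals had no cortical impact. Their right punch is labelled ipsilateral and their left punch contralateral, and the rest of the series holds animals punched 24 or 72 h after an impact over the right somatosensory cortex. The 13 animals were C57BL/6 mice, 7 females (CF2, CF3, EF3, GF2 and GF3 in batch A, KF2 and KF3 in batch B) and 6 males (CM1, EM2, EM3 and GM2 in batch A, KM2 and KM3 in batch B). The batch letters are the labels' own, and the labels do not say what a batch shared. The labels give 8 to 9 weeks as the age at impact and no separate age for naive animals. All were perfused with buffer before the punches were taken, and polyadenylated RNA was sequenced.

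A pair of punches from 1 brain separates kinds of variation that a single sample mixes. A gene may differ between right and left in every animal, between animals in both punches alike, or between punches without regard to side or animal. The adult cortex is built from the same neuronal layers and glia on both sides. Variation between animals can involve genes that follow the recent state of the animal. Immediate early genes, such as Fos, Arc and Egr1, are transcribed within minutes of neuronal activity through CREB, serum response factor and MEF2 at their promoters and enhancers. Clock genes, such as Per1 and Per2, follow the time of day and also respond to activity and to glucocorticoids.

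Depth was even, with 13.7 to 19.5 M counts per library (median 16.6). Mitochondrial genes held 2.35 to 6.74% of counts (median 5.12), lowest in the right punch of KF3 and highest in the left punch of CM1. The largest difference among libraries followed transcript length and also split the batches. A length index, the median log2 deviation of genes with at least 7230 nt of exon minus that of genes with at most 2124 nt, ran from -0.6 in the left punch of KM2 to 0.453 in the left punch of CM1. The first principal component held 38.1% of the variance and correlated with this index at a Pearson r of -0.972 over the 26 libraries, which share animals and batches. Its scores ran from -70.5 to -6.61 in batch A and from 23.72 to 75.29 in batch B. The 2 punches of CM1 (right minus left -0.482) and of KM2 (0.448) stood apart from each other, while the other 11 animals ranged from -0.111 to 0.225. CM1 had 2769 genes and KM2 had 1712 that differed over 2-fold between punches, against 393 in KF2. The tests of side, side by sex and animal were therefore also run without CM1 and KM2 and with the index as a covariate, and the test of sex without these 2 animals.

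**Figure D1:**
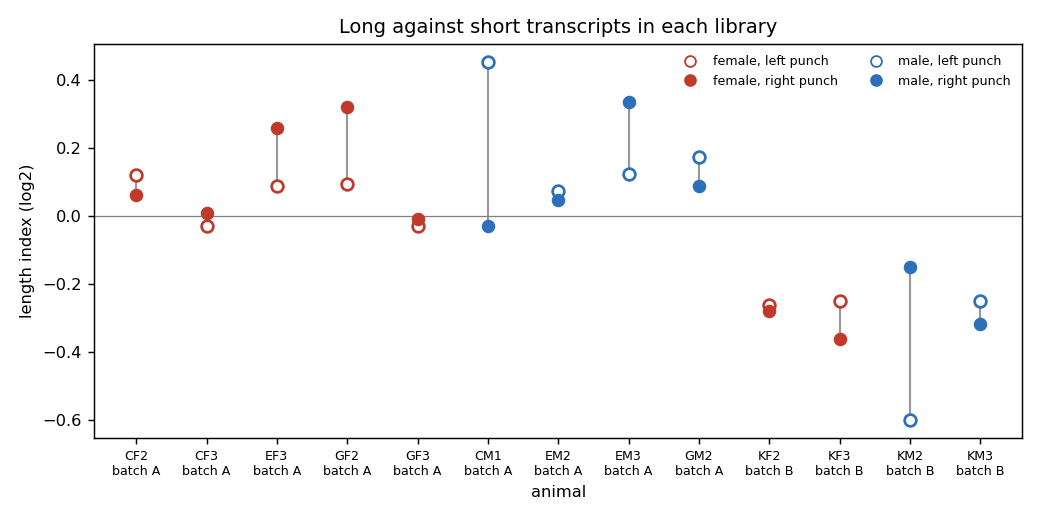
The length index of each library (vertical axis, log2) for the 13 naive animals (horizontal axis, ordered by batch and sex), with the left punch as an open circle, the right punch as a filled circle and colour for sex. The left punches of CM1 (0.453) and KM2 (-0.6) lie far from their right punches, and all 8 batch B libraries lie below 0.

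At baseline, 15567 genes reached a mean of 1 CPM (a gene's counts relative to the library's total, scaled by TMM) over the 13 animals, and 13569 of these were protein coding. A mean of 100 CPM was reached by 2262 genes and 1000 CPM by 83. Levels of different genes are compared below in TPM, the like measure of transcripts, which also divides by exon length, as mean ± SD over 13 animals. Genes of the mitochondrial genome held 12.4% of TPM, led by mt-Co1 (35012 ± 9511 TPM), a subunit of cytochrome c oxidase. The most abundant nuclear gene was Nrgn (3066 ± 1024 TPM), whose product neurogranin binds calmodulin in dendrites. Camk2n1, an inhibitor of CaM kinase II, followed at 2631 ± 514 TPM. The calmodulin genes Calm2 (2442 ± 466 TPM) and Calm3 (2032 ± 455 TPM) were also in the top 10. The kinase subunit Camk2a stood at 1696 ± 249 TPM, and the top 10 also included Cpe (2116 ± 443), Sparcl1 (1726 ± 389), Ckb (1716 ± 360) and Selenow (1714 ± 345). The top 10 together held 2.12% of TPM.

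Markers of each cortical cell class were present. Slc17a7, the vesicular glutamate transporter of cortical excitatory neurons, stood at 698 ± 178 TPM. Among interneuron genes the peptides Cck (844 ± 209), Sst (542 ± 131) and Npy (263 ± 54.8 TPM) were highest, and Cck is also made by excitatory neurons. Astrocytes were represented by Glul (1366 ± 262), the glutamine synthetase, and by the glutamate transporter Slc1a2 (823 ± 218 TPM). Among myelin genes, Mbp stood at 395 ± 129 TPM. Microglial C1qb (97.5 ± 21.0), endothelial Cldn5 (85.2 ± 17.2) and pericyte Rgs5 (75.9 ± 17.4 TPM) followed. The meningeal and oligodendroglial enzyme gene Ptgds stood at 1034 ± 262 TPM.

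Upper layer genes were led by Lamp5 (320 ± 54.6 TPM), and deep layer genes by Parm1 (42.3 ± 5.17), Tle4 (28.9 ± 6.86) and Fezf2 (27.1 ± 7.16 TPM). Markers of tissue around the cortex differed in level. The 18 meningeal and perivascular fibroblast genes summed to 433 to 1114 CPM over the 26 libraries, the 12 striatal genes to 251 to 394 CPM and the 7 thalamic genes to 57.4 to 101 CPM. The 7 hippocampal genes summed to 22.4 to 32.6 CPM and the 12 genes of choroid plexus and ependyma to 7.56 to 49.6 CPM, highest in the right punch of GF2. The 10 neutrophil genes summed to 0.0512 to 18.5 CPM (median 0.802), with S100a8 at 0 to 2.55 CPM, and the 9 lymphocyte genes to 0.428 to 2.62 CPM. The single high neutrophil value was the right punch of EM3.

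No gene passed the test for a difference between the right and left cortex. Among 16777 genes tested with the animal as a block, 0 (0.0%) had an adjusted p under 0.05 by edgeR's quasi-likelihood test with Benjamini-Hochberg adjustment, and 286 (1.7%) had an unadjusted p under 0.05. DESeq2 and limma voom called 0 as well. The smallest adjusted p was 1.0. Standard errors of the log2 fold changes had a median of 0.094, and 99.4% of genes changed by less than 0.5 on the log2 scale in either direction. The right punch was the higher one for 7681 genes. A side difference close to that standard error was not detectable gene by gene with 13 pairs. The 1.7% is also a smaller share than evenly spread p-values would place under 0.05. The test was thus conservative here, and 0 calls do not show that the sides are equal. Without CM1 and KM2, 856 of 16838 genes had an unadjusted p under 0.05. With the length index as a covariate 694 of 16777 did, and 0 were called in either setting.

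The genes with the smallest p included Serpinb1a, an inhibitor of neutrophil serine proteases that oligodendrocytes also express. Its level was 4.08 ± 1.14 CPM on the right and 2.92 ± 1.12 on the left (SD, n = 13), a log2 fold change of 0.51 ± 0.13 SE. It was higher on the right in 12 of 13 animals, CF2 being the exception (adjusted p = 1.0 by edgeR's quasi-likelihood test). Ndrg1, a stress-responsive gene of myelinating glia, stood at 57.9 ± 12.0 CPM on the right and 48.7 ± 7.63 on the left, a log2 fold change of 0.24 ± 0.07 SE. Carns1, the carnosine synthase of oligodendrocytes, stood at 5.81 ± 1.44 against 4.32 ± 1.09 CPM, a log2 fold change of 0.43 ± 0.12 SE. Both were higher on the right in 11 of 13 animals. The fourth gene in this direction, Arhgef28, a guanine nucleotide exchange factor, had a log2 fold change of 0.18 ± 0.05 SE. In the other direction, Oxtr, the oxytocin receptor, stood at 7.59 ± 1.46 CPM on the right and 9.46 ± 1.75 on the left, a log2 fold change of -0.32 ± 0.09 SE. Its right punch was the higher one in GF3 alone, while the groups of 13 overlapped. Mrps6 (-0.27), Dctd (-0.31) and Art3 (-0.36) completed the set of 8, each with an adjusted p of 1.0.

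Described as lists, which were chosen with earlier results of these data known, the myelin genes leaned to the right punch in these animals. All 12 tested genes of oligodendrocytes and myelin had a positive log2 fold change, beside 7681 of 16777 genes tested. Their median was 0.27 against -0.007 over all genes tested. Of the 12, 7 had an unadjusted p under 0.05, beside 286 of 16777, but none passed adjustment. Mal, a proteolipid of compact myelin, ranged from 54.4 to 192 CPM (median 93.1) over the libraries. In CF3 it stood at 83.8 CPM on the left and 178 on the right, in KM3 at 81.3 and 142, and in KF3 at 81.5 and 131. In CF2 the left was higher, with 99.8 against 71.2 CPM, as it was in GM2 with 99.5 against 79.8. Its log2 fold change was 0.36 ± 0.11 SE, higher on the right in 10 of 13 animals (adjusted p = 1.0 by edgeR's quasi-likelihood test). Cldn11, the myelin tight junction claudin, had 0.37 ± 0.12 SE, the iron carrier gene Trf had 0.38 ± 0.13 SE, and Mbp had 0.30 ± 0.14 SE on the same scale. In such bulk tissue, fewer cells of a type and less RNA per cell cannot be told apart.

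The summed myelin genes per animal, as log2 of right over left, ran from -0.58 to 0.99 with a median of 0.37, and the right was higher in 9 of 13 animals. The 12 of 12 count therefore describes genes that move together within a punch, not 12 separate observations. Without CM1 and KM2, 12 of 12 were still higher on the right, with a median of 0.18, beside 7285 of 16838 genes tested. There 3 of 12 had an unadjusted p under 0.05, beside 856 of 16838. With the length index as a covariate the median was 0.29 and 10 of 12 did, beside 694 of 16777. Within batch A the median was 0.16 with 0 of 12 genes at an unadjusted p under 0.05, beside 273 of 17081. Within batch B it was 0.58 with 10 of 12, beside 395 of 16355.

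Layer markers differed by depth in the sign of their fold changes. All 12 deep layer markers were higher on the right (median log2 fold change 0.14), and 0 of 10 upper layer markers were (median -0.10). Of all genes tested, 7681 of 16777 were. Without CM1 and KM2 these were 12 of 12 (0.1) and 1 of 10 (-0.06), beside 7285 of 16838 genes. The largest deep layer value was that of Ccn2, a secreted matrix protein gene of the deepest layer, at 0.46 ± 0.19 SE (unadjusted p = 0.0245, adjusted p = 1.0). The deep layer sum was higher on the right in 8 of 13 animals and the upper layer sum in 5 of 13. Among females alone, 7 of 12 deep layer markers were higher on the right (median 0.03), beside 7449 of 16920 genes. Among males alone 12 of 12 were (median 0.34), beside 8664 of 16796. Within batch A the medians were 0.06 for deep and -0.03 for upper layers, and within batch B 0.39 and -0.25. Whether the depth or position of the punch differed between sides was not tested.

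**Figure D2:**
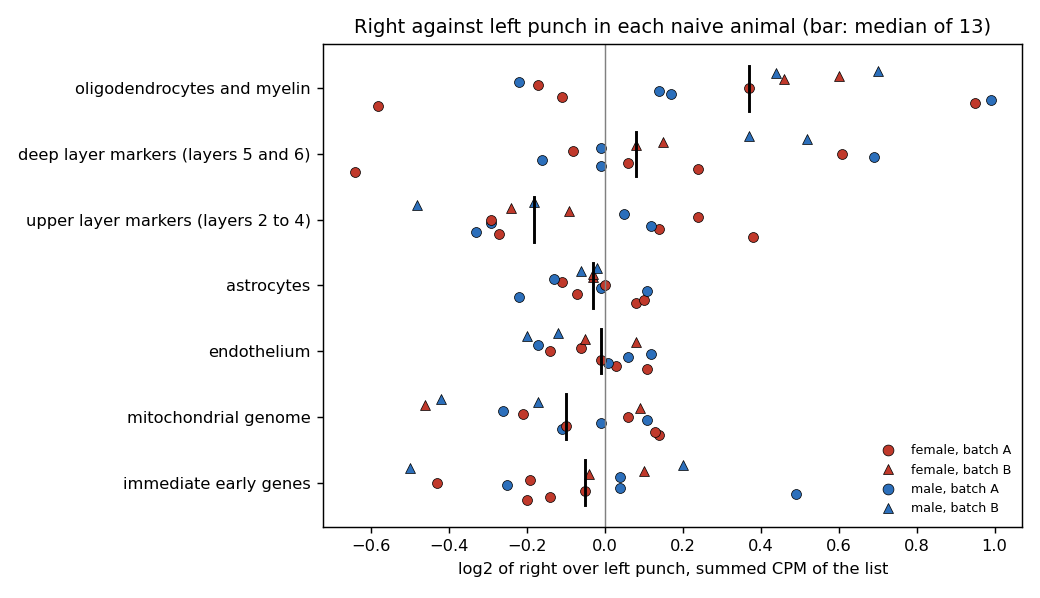
Log2 of right over left punch (horizontal axis) for the summed CPM of 7 gene lists (vertical axis) in each of the 13 naive animals, coloured by sex, shaped by batch, with a bar at the median. The myelin sums spread from -0.58 to 0.99 around a median of 0.37, and upper layer sums centre on -0.18.

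The other lists are given beside 7681 of 16777 genes tested that were higher on the right. Meningeal and perivascular fibroblast genes had 3 of 18 (median -0.13, and -0.04 without CM1 and KM2), red cell genes 1 of 5 (-0.16) and the mitochondrial genome 0 of 12 (-0.10). Precursors of oligodendrocytes had 8 of 8 (0.05), which became 3 of 8 (-0.01) without CM1 and KM2, beside 7285 of 16838. Astrocyte genes had 2 of 12 (median -0.03), endothelial genes 3 of 12 (-0.03) and microglial genes 9 of 13 (0.02). Genes that set the left-right axis of the embryo were mostly not expressed at a testable level. Of 10 on the list 3 were tested, among them Lmo4 (225 CPM), a cortical LIM-only factor, and Dand5 (8.91 CPM), a Nodal antagonist, and none of the 3 was called.

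The side difference itself was compared between females and males. No gene passed by edgeR's quasi-likelihood test (0 of 16777, 0.0%), with 311 (1.85%) at an unadjusted p under 0.05. limma voom called 0 and DESeq2 called 1. That gene was Xist, the RNA of the inactive X chromosome, which also had the smallest adjusted p in edgeR (0.2, unadjusted 1.2e-05). Its counts in males were traces. All 6 left punches of males had 0 counts, whereas the right punches had 5 in CM1, 12 in EM2, 14 in EM3, 7 in GM2, 3 in KM2 and 0 in KM3. Right punches of females held 244 to 875 CPM. In the other direction, the Y-linked genes Ddx3y, Eif2s3y, Kdm5d and Uty summed to 0 counts in 13 of 14 female libraries and to 7 in the right punch of CF2. Where these few reads came from was not tested. Among the other genes of smallest p, Dnajc12, a co-chaperone, differed by 0.54 ± 0.15 SE and Col6a3, a collagen VI chain, by -1.01 ± 0.30 SE on the log2 scale, each with an adjusted p of 0.999.

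Animals differed in genes whose levels repeated in both punches. A joint test of the animals within sex and batch called 130 of 16777 genes (0.775%) by edgeR's quasi-likelihood test, with 2086 (12.4%) at an unadjusted p under 0.05. The count depended on the setting, with 846 without CM1 and KM2, 1356 with the length index as a covariate, 1111 with DESeq2, 250 without CM1 alone and 77 without EM2. For each gene an intraclass correlation (ICC) on log2 CPM describes how far the 2 punches of an animal resemble each other, where 1 means identical pairs and values at or below 0 mean no likeness. Its median was 0.11 over all genes tested and 0.85 over the 130, which follows from how they were called. Over all genes the median SD (log2) was 0.2 for animal means of 2 punches, within sex and batch. It was 0.25 for single punches of 1 animal. A mean of 2 punches still holds part of the punch spread, so these SDs are not like measures. Of all genes, 10.6% had an ICC of at least 0.5. Of the 130 called genes, 123 were protein coding. Measured from the mean of its own sex and batch, EM3 was the furthest animal for 31 of them, EM2 for 26 and GF2 for 21. Batch B holds 2 animals of each sex, which lie equally far from their mean, so this count cannot rank them.

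**Figure D3:**
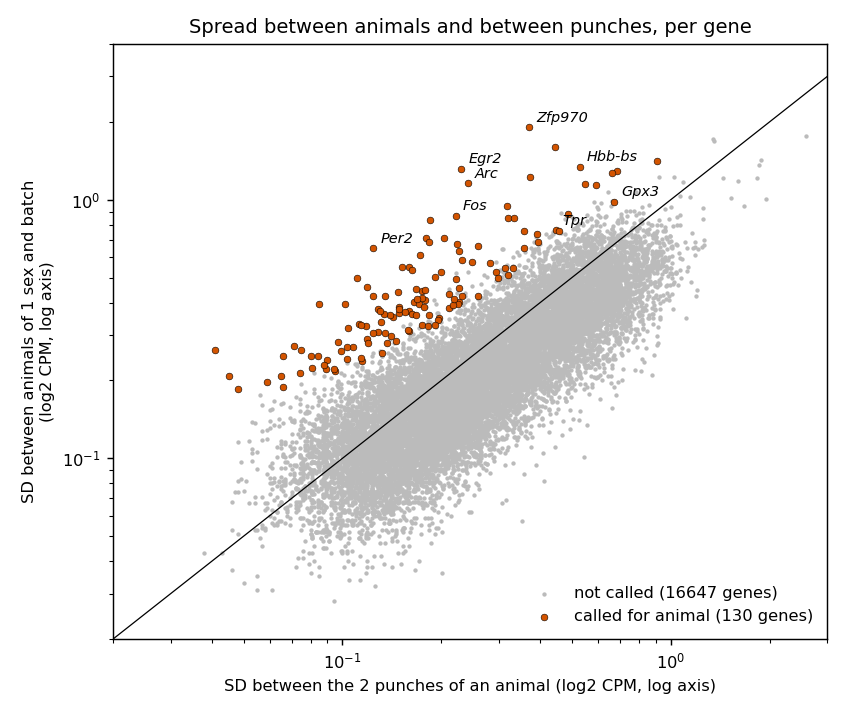
SD of animal means (2 punches each) within sex and batch (vertical log axis, log2 CPM), 1 point per gene. The horizontal log axis is the SD of single punches of an animal. The 130 genes called for animal lie above the line where these SDs are equal, with Zfp970, Hbb-bs, Egr2 and Arc at the top.

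Among the lists, that of immediate early genes held the most called genes. The lists were chosen with earlier results of these data known, so shares called per list, here and below, are descriptions. Of 17 on the list 14 were called, against 0.775% of all genes tested. The median ICC of the 17 was 0.86, with a median SD of 0.61 for animal means and 0.23 for single punches. They are listed below by role, after the promoters of 6 of them. These promoters are shown because their genes were all called for animal and because they carry the letters that cyclic AMP response element binding protein recognises. The sequences are the 250 bases before the RefSeq transcription start on GRCm38.p6, written along the gene's strand: Fos chr12:85473640-85473889 (plus strand), Fosb chr7:19310046-19310295 (minus), Egr2 chr10:67537619-67537868 (plus, 1 of 5 starts in RefSeq), Nr4a1 chr15:101266596-101266845 (plus), Npas4 chr19:4989972-4990221 (minus) and Dusp1 chr17:26508473-26508722 (minus). Capitals mark the core site TGACG or its reverse complement CGTCA, the full palindrome TGACGTCA in Dusp1, which holds a core site on each strand, and a serum response element in Egr2. Of the 5 Egr2 starts, the one shown was chosen for holding the most core sites.
Fos: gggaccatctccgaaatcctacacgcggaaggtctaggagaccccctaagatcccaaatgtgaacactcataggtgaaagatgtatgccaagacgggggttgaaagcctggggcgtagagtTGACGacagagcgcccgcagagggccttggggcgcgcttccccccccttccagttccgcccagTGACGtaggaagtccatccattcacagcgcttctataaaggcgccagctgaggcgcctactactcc
Fosb: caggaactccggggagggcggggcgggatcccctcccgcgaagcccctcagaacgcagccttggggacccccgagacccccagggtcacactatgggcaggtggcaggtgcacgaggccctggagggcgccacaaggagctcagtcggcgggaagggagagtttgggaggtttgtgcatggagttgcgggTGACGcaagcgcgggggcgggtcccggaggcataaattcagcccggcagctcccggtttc
Egr2: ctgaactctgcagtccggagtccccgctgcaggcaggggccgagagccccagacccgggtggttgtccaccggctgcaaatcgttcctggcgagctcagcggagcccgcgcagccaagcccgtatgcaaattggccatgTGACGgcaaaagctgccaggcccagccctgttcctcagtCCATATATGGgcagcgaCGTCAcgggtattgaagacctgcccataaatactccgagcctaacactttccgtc
Nr4a1: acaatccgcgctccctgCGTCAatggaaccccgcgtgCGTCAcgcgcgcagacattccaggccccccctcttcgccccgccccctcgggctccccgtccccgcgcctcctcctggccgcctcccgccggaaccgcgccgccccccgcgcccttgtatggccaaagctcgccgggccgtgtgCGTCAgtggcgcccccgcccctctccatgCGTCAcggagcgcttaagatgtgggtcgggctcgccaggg
Npas4: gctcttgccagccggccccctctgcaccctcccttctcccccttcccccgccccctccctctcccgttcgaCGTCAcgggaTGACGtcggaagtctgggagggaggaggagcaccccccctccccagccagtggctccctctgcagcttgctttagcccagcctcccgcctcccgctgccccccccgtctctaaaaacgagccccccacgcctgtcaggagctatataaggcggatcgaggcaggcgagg
Dusp1: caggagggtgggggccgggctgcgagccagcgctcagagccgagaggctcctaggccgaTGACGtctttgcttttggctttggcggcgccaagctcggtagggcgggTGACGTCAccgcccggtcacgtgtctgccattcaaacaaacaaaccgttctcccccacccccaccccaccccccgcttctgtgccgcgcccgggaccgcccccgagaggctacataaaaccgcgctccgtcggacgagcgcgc

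By these letters Fos held 2 core sites, Fosb 1, Egr2 2, Nr4a1 4, Npas4 2 and Dusp1 3. A promoter was found in RefSeq for 12 of the 17 immediate early genes, and 11 of the 12 (91.7%) held at least 1 core site on either strand in these 250 bases. A gene was counted if any of its starts held the site. The share was 29.4% of 11759 tested genes with a promoter, 44.3% of the 88 called ones and 19.8% of all 27025 RefSeq genes. Counted singly, 17.8% of all 32851 promoters held one. The full palindrome stood in 2 of the 12, in 2.97% of tested genes, in 3.41% of called ones and in 1.77% of all RefSeq genes. The serum response element stood in 1 of the 12, in 1.44% of tested genes and in 1.62% of all RefSeq genes. These are matches of letters and were not tested for binding.

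Among the transcription factors, Egr2 ranged from 1.88 to 21.5 CPM (median 8.41). Both punches of EM3 (2.58 left, 1.88 right), CF2 (2.59 and 3.35) and KF2 (2.4 and 2.25 CPM) were low, and both punches of KM3 (20.7 and 21.5), GM2 (18.1 and 16.8) and EM2 (18.0 and 17.1 CPM) were high. Its ICC was 0.97 and the adjusted p for animal 1.59e-07. Nr4a1, an orphan nuclear receptor, ranged from 40.6 to 228 CPM (median 113), lowest in the left punch of CM1 and highest in both punches of KF3 (228 and 225 CPM). Its ICC was 0.95 and the adjusted p 8.3e-07. Fos ranged from 8.97 to 60.3 CPM (median 30.6), with CF3 (10.8 and 8.97) and EM3 (9.66 and 9.06) lowest in both punches and KF3 (55.2 and 60.3) highest, at an adjusted p of 7.92e-06.

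Npas4, which is induced in neurons by calcium influx and little by growth factors, ordered the animals differently. Over the libraries it ran from 11.7 to 63.2 CPM (median 26.4). GF3 (63.2 left, 41.5 right), KF3 (55.3 and 56.2) and KM2 (49.8 and 51.8 CPM) were high, whereas GM2, high for Egr2, was at 16.7 and 20.0 CPM. Its adjusted p was 4.79e-04. The other factors called were Egr1 (156 to 659 CPM, adjusted p 5.0e-04), Egr3 (203 to 468 CPM, 0.00367), Nr4a3 (6.71 to 41.9, 0.00336), Fosl2 (26.8 to 79.0, 0.00148), Fosb (6.75 to 32.5, 0.00963) and Ier2 (3.55 to 29.7 CPM, 0.0346).

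Among effectors, Arc, whose product acts at synapses and is required for the removal of AMPA receptors, had the widest range. It ran from 64.0 to 740 CPM (median 221). In EM3 it stood at 64.0 CPM on the left and 64.5 on the right, in CF3 at 73.7 and 75.2, in EF3 at 500 and 442, and in EM2 at 697 and 740. These animals were taken from the low and high ends of the range, so their lack of overlap follows from that choice. The 2 punches of each of them lay close together, whereas those of CM1 did not. With libraries scaled over the whole series, Arc stood in CM1 at 74.4 CPM on the left and 136 on the right. The ICC was 0.96 and the adjusted p for animal 1.59e-07 by edgeR's quasi-likelihood test. Low and high animals occurred in both sexes, with 241 ± 149 CPM in females (n = 7) and 301 ± 236 in males (n = 6). Dusp1, a phosphatase that shuts off MAP kinases, ranged from 13.3 to 91.3 CPM (adjusted p 2.56e-05), the antiproliferative gene Btg2 from 6.47 to 41.1 CPM (2.58e-04) and the neurotrophin gene Bdnf from 17.2 to 35.8 CPM (0.00367).

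The 3 members not called were Junb (8.62 to 145 CPM, ICC 0.63, adjusted p 0.055), Egr4 (7.97 to 102 CPM, 0.39 and 0.331) and Nptx2 (52.4 to 134 CPM, 0.48 and 0.254). The number called was 17 of 17 without CM1 and KM2 and 17 of 17 with the length index as a covariate, where 5.02% and 8.08% of all genes were called. DESeq2 called 16 of 17, beside 6.62% of all genes, and a test of all 12 animal terms, with sex and batch left in, called 17, beside 26.1%. It was 10 within batch A alone and 12 to 16 on leaving out each animal in turn. No member differed between sides, where 2 of 17 were higher on the right (median log2 fold change -0.07), beside 7681 of 16777 genes tested.

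**Figure D4:**
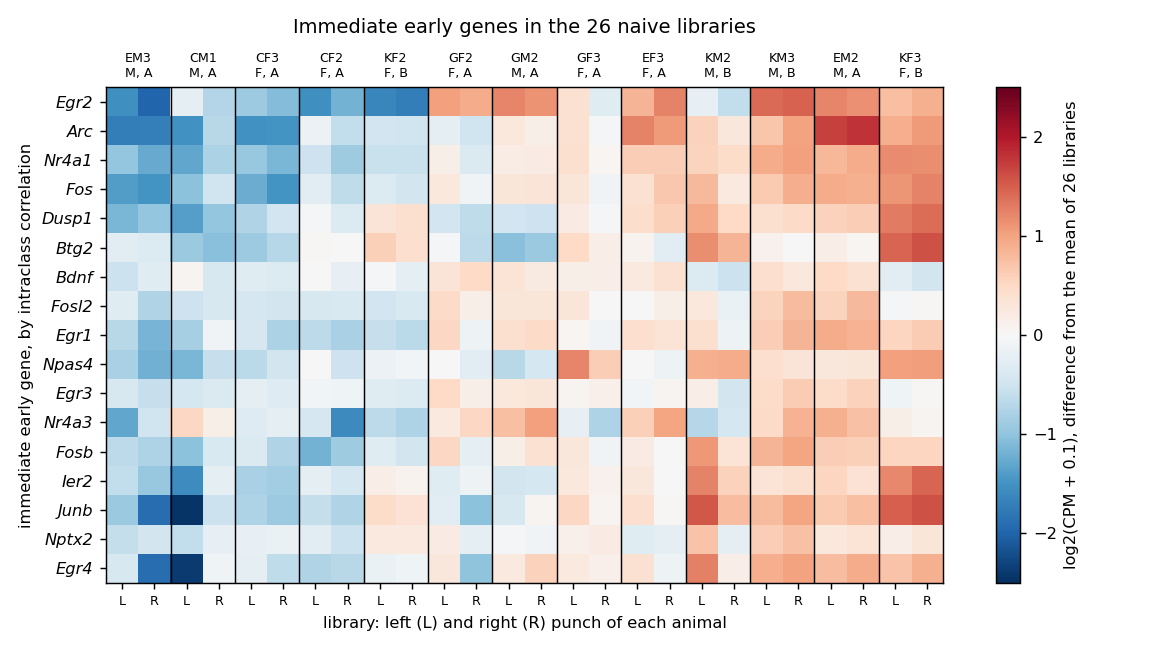
Immediate early genes (rows, by ICC) in the left (L) and right (R) punch of the 13 naive animals (columns, ordered by the mean of the genes, with sex and batch above), coloured by log2(CPM + 0.1) relative to the mean of 26 libraries. EM3, CM1 and CF3 are low and KM3, EM2 and KF3 high in both punches.

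Averaged over the list, the log2 deviation from the mean of all libraries was -0.84 on the left and -1.07 on the right in EM3, and -0.65 and -0.73 in CF3. It was 0.7 and 0.71 in EM2 and 0.71 and 0.79 in KF3. The widest gap between punches was in CM1 (-0.99 and -0.46), followed by KM2 (0.61 and 0.15), the pairs that also differed most in the length index. The part of the index in those gaps was not tested beyond the covariate given above. Many other called genes went with Arc over the 13 animal means once the mean of each sex and batch was removed. Of the 129 called genes other than Arc, 42.6% had a Pearson r of at least 0.7 with Arc over these values. The share was 3.17% of all 16776 genes tested. All correlations between genes given below use such values. The animals share libraries across genes. With the means removed, the 2 batch B animals of each sex mirror each other, so these are descriptions. The genes most like Arc were Trib1 (r = 0.98), a pseudokinase gene, Fos (0.96) and Spry2 (0.95), which encodes an inhibitor of receptor tyrosine kinase signalling. Sik1, a kinase induced by cyclic AMP, ran from 4.49 CPM in the left punch of EM3 to 23.8 CPM in the right punch of EM2 (adjusted p 6.23e-05). It was most like Dusp5, Gpr3 and Dusp6 (each 0.98).

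Part of the clock gene list was also called, and whether these genes vary apart from the immediate early genes was not tested. Of 17 matched genes 4 were called, against 0.775% of all genes tested, with a median ICC of 0.46 over the 17. The count was 8 without CM1 and KM2 (5.02% of all genes) and 10 with the length index as a covariate (8.08%). Per2, a repressor of the core clock, ranged from 21.9 to 78.9 CPM. CF2 (21.9 left, 23.1 right) and KF2 (26.6 and 26.3) were low in both punches, and GM2 (76.8 and 69.0), EM2 (74.7 and 65.8) and EF3 (61.8 and 66.0 CPM) were high. Its ICC was 0.96 and its adjusted p 1.17e-06. Per1 ran from 41.4 CPM in the left punch of CM1 to 148 CPM in the right punch of KM3 (adjusted p 5.32e-04), Bhlhe40 from 94.3 to 200 CPM (8.76e-05) and Cry1 from 11.3 to 30.6 CPM (0.00896). The labels used here give a light cycle but no hour of tissue collection, so time of day cannot be related to these values. Tnfrsf25, a death receptor gene (1.92 to 10.7 CPM, adjusted p 0.0237), was most like Egr2 and Per2 (each r = 0.97), and its adjusted p ran from 1.67e-22 to 0.12 over 23 alternatives.

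**Figure D5:**
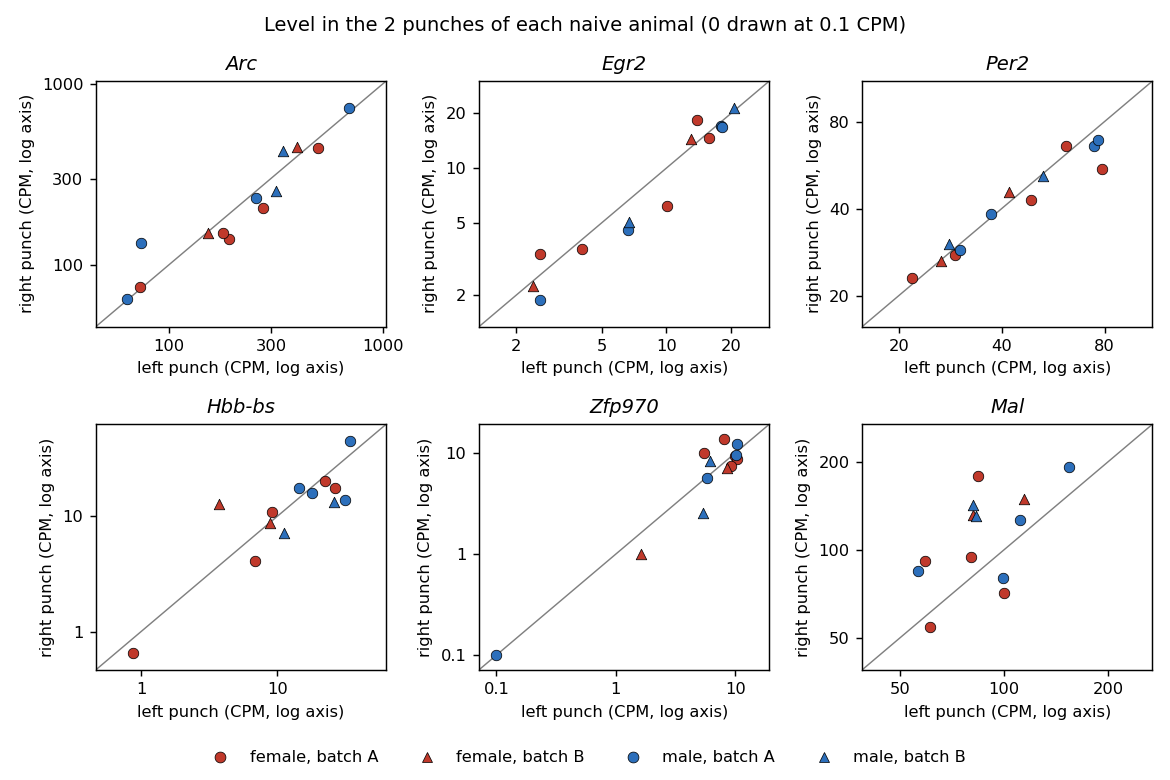
Level in the right punch (vertical log axis, CPM) against the left punch (horizontal log axis, CPM) of each naive animal for 6 genes, coloured by sex and shaped by batch, with the line of equality and 0 drawn at 0.1 CPM. Arc, Egr2, Per2, Hbb-bs and Zfp970 spread along the line, from 64.0 to 740 CPM for Arc, while most Mal points lie above it.

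Metabolic and stress lists held 1 or 2 called genes each, beside 0.775% of all genes tested. Pfkfb3, which raises the allosteric activator of glycolysis, ranged from 30.4 to 71.2 CPM (ICC 0.96, adjusted p 6.35e-05) and was the only one of 12 hypoxia and glycolysis genes called. Hspa5, the main chaperone of the endoplasmic reticulum, ranged from 174 to 370 CPM (adjusted p 0.0017). Xbp1, a transcription factor of the unfolded protein response, ranged from 61.7 to 121 CPM (0.0473). Those 2 were called of 14 heat shock and unfolded protein genes, 8 without CM1 and KM2 and 11 with the length index as a covariate. Of 13 glucocorticoid targets, Zbtb16 (45.8 to 92.0 CPM, 0.0114) and the cell cycle inhibitor Cdkn1a (9.6 to 33.5 CPM, 0.0128) were called. Of 15 cholesterol synthesis genes 1 was, Insig1 (42.4 to 86.6 CPM, 0.027), which retains sterol regulators in the endoplasmic reticulum, and 3 and 8 were in the same settings. The calls for Xbp1, Insig1, Zbtb16 and Cdkn1a were lost in at least 1 alternative that left out an animal, with highest adjusted p-values of 0.168, 0.195, 0.0556 and 0.155 over 23 alternatives.

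Most called genes were on no list, since 30 of the 130 were on any. Those described in this paragraph were chosen after their values were seen. Several encode inhibitors of MAP kinase signalling, namely the phosphatases Dusp4 (5.18 to 24.1 CPM), Dusp5 (5.57 to 26.4) and Dusp6 (49.3 to 139), and Spry4 (6.91 to 22.3) and Spred2 (78.0 to 168 CPM), which act on the path from receptor kinases. Dusp6 stood at 49.3 CPM on the left and 51.3 on the right in EM3, at 124 in both punches of EM2, and at 124 and 139 in KM3 (adjusted p for animal 1.16e-05). EM3 was thus low and EM2 and KM3 high, as for Arc. Kcnj2, an inward rectifier potassium channel gene, ran the other way. It was lowest in KM3 (17.5 left, 16.8 right) and EM2 (17.1 and 17.5 CPM), and among the highest in EM3 (29.8 and 35.6), with an adjusted p of 0.00235. Homer1, a postsynaptic scaffold gene with an activity-induced short form, followed neither order, with KF3 low (210 and 186 CPM) although high for Fos, and GF2 high (507 and 605 CPM, adjusted p 0.0017). Gene counts do not separate its long and short forms. Over the 130 genes, 82 had a Pearson r of at least 0.5 with Arc and 11 had one of -0.5 or less. These were taken over the 13 animal means with sex and batch means removed.

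Few cell type markers were called. Lists with 0 called included excitatory neurons, upper and deep layers, interneurons, astrocytes, oligodendrocyte precursors, microglia, endothelium and pericytes. With the length index as a covariate, where 8.08% of all genes were called, 3 of 8 pericyte, 3 of 10 upper layer, 3 of 12 astrocyte, 3 of 12 endothelial and 3 of 13 interneuron genes were. Without CM1 and KM2, where 5.02% were, 3 of 8 pericyte genes were called. Among 11 striatal genes Pde10a, a phosphodiesterase of striatal projection neurons, was the only one (45.8 to 142 CPM, 0.0317, 7.49e-11 to 0.109). Of 12 tested mitochondrial genes 2, namely mt-Nd5 (1600 to 5686 CPM, 0.0413) and mt-Nd6 (532 to 1992 CPM, 0.0429), were called, and both calls were lost in 11 of 23 alternatives.

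Several called genes had their most extreme values in 1 to 3 animals, and only some of these calls were lost without such an animal. Hbb-bs, a beta globin gene of red cells, stood at 0.87 CPM on the left and 0.652 on the right in GF2, and at 33.8 and 44.8 CPM in GM2, with the other libraries between. Its ICC was 0.86 and its adjusted p 0.00235, with 0.112 without GF2, the highest of 23 alternatives (lowest 6.93e-72). Hba-a1, an alpha globin gene, followed it (0.196 to 39.7 CPM, adjusted p 0.0046, 7.81e-61 to 0.0276 over the alternatives). All animals were perfused, and how completely was not measured.

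Col6a4, a collagen VI chain, was high in both punches of GF3 (11.8 and 10.3 CPM) and of EF3 (6.35 and 7.39) and reached 0.324 CPM at the lowest, in KM3 (ICC 0.91, adjusted p 1.02e-04). Serinc2, a membrane protein gene, ranged from 2.75 CPM in EM3 to 19.4 CPM in EM2 (adjusted p 0.00102). The calls of Col6a4 and Serinc2 were kept in all 23 alternatives, those that left out an animal among them. Gpx3, the secreted glutathione peroxidase, was at 13 CPM on the left and 80.3 on the right in EM3, against at most 4.83 CPM in the other right punches of males. Its adjusted p of 0.00828 became 0.742 without EM3 and 0.27 with limma voom (1.34e-67 to 0.742 over 23 alternatives). The same right punch of EM3 held the highest sum of meningeal and perivascular fibroblast genes (1114 CPM, median 743 over 26 libraries). With sex and batch means removed, the genes most like Gpx3 over animals were Serpinf1 and Mfap4 (each r = 0.95), which fibroblasts of the meninges express. The part of meningeal tissue in the Gpx3 values was not tested.

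Tpr, a nuclear pore protein gene with a long coiled coil, ranged from 8.0 to 128 CPM. Both punches of KF3 (15.8 and 8.0 CPM) and the right punch of KM3 (12.4, left 47.9 CPM) were the lowest. Akap9, which encodes a large anchoring protein of the Golgi and centrosome, showed the same libraries low, with 16.4 and 7.24 CPM in KF3 and 37.6 and 10.5 CPM in KM3. The adjusted p was 0.0346 for Tpr and 0.0455 for Akap9. Over 23 alternatives they reached 0.844 and 0.883, and 17 and 12 of these kept the call. Over animal means, with sex and batch means removed, Tpr went with Akap9 (r = 1.0) and Atrx (0.99). With the length index as a covariate the adjusted p was 0.00294 for Tpr and 0.00178 for Akap9.

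Zfp970, a zinc finger gene on chromosome 2 (177464733 to 177478129, GRCm38), had 0 counts in both punches of GM2. KF3 had 24 counts on the left (1.64 CPM) and 17 on the right (0.993 CPM), KM3 had 5.38 and 2.56 CPM, and the other 20 libraries held 5.53 to 13.8 CPM. The ICC was 0.96 and the adjusted p 8.76e-05, which became 0.0526 without GM2 (5.46e-55 to 0.0526 over 23 alternatives). Low values occurred in injured animals as well, with 1 and 32 counts in LF3 and 17 and 60 in LM2. The gene lies among near-identical zinc finger copies, and how the authors' counting treated reads shared between copies is not given in the sources used here, so its level is uncertain. Gm14403, a related gene that was also called (adjusted p 0.00207), had 0 counts in both punches of GM2 as well, and 6 and 19 counts in KF3.

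Between the sexes, 7 of 19216 genes (0.0364%) differed after the 2 punches of each animal were summed, with 560 (2.91%) at an unadjusted p under 0.05. All 7 lie on the sex chromosomes, 2 (0.0104%) higher in females and 5 (0.026%) in males. Xist stood at 631 ± 198 CPM in 7 females and 0.209 ± 0.176 in 6 males. Eif2s3x, a translation initiation factor gene that escapes X inactivation, stood at 81.8 ± 7.0 and 56.1 ± 3.88 CPM, a log2 fold change of 0.54 ± 0.07 SE (adjusted p 0.00158 by edgeR's quasi-likelihood test). Its call was lost with left punches alone (0.181). In males the Y-linked Ddx3y stood at 50.7 ± 14, Eif2s3y at 41.8 ± 9.82, Kdm5d at 32.2 ± 6.26, Uty at 16.2 ± 4.81 and the RNA Gm29650 at 1.84 ± 0.279 CPM. No autosomal gene passed.

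Far more genes differed between the labels' batches than between sexes. With sex in the model, 9779 of 20120 genes (48.6%) differed between 9 animals of batch A and 4 of batch B, with 54.7% at an unadjusted p under 0.05. Of these calls, 4835 genes (24.0%) were higher and 4944 (24.6%) lower in B. Kcnq1ot1, a very long antisense RNA, stood at 68.2 ± 12.1 CPM in batch A and 17.0 ± 3.01 in batch B, a log2 fold change of -1.97 ± 0.15 SE. Dbp, a clock output gene, stood at 42.1 ± 10.5 and 116 ± 21.0 CPM, a log2 fold change of 1.50 ± 0.14 SE. Junb, an immediate early gene, stood at 40.6 ± 20.2 and 101 ± 32.4 CPM, or 1.34 ± 0.30 SE. Of the immediate early genes 7 of 17 were higher in batch B and 0 lower (median log2 difference 0.61). All 8 libraries of batch B had a length index of -0.15 or less, so batch and transcript length cannot be told apart among these animals. The other genes of largest difference were Xirp2 (-2.06), Ppp2r2cos (-2.03), Sycp2 (-1.74) and Muc6 (-1.73), lower in batch B, and Tpi-rs11 (1.70), Cebpd (1.28) and Amn (1.28), higher. The animal test above compared animals only within sex and batch, so these differences do not enter it.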

How the data were processed

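The authors deposited raw counts per gene and library for the series in 1 table, and all values start from these counts. The submitters' processing notes name HISAT2 2.0.5 and the mm10 build. How reads were counted, with which annotation and whether by strand, is not given in the sources used here, so reads of overlapping genes cannot be told apart. Identifiers were matched to GENCODE M21 (GRCm38) for 54495 of 54532 genes. Promoters are from RefSeq (GRCm38.p6).

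Right and left were compared in R 4.3.3 with edgeR 4.0.16 (limma 3.58.1 for voom), using filterByExpr on side, TMM, the animal as a block and a two-sided quasi-likelihood F test, Benjamini-Hochberg over all genes tested, called at an adjusted p under 0.05. Animals were tested jointly within sex and batch (12 residual degrees of freedom). Sex and batch were tested on the counts of both punches summed per animal, each with the other as a covariate. The SE was taken from the fold change and the F statistic. CPM used TMM library sizes, TPM used exon lengths, and log2 CPM for the ICC had a prior count of 2. The pairing comes from the animal code in the labels. Deviations from the mean of each sex and side, with batch left in, were correlated between the 2 punches of an animal. They correlated at 0.166 to 0.764, above 0.1 in all 13 pairs. With the length index and the sex and batch means removed together, 7 pairs were above 0.1. KM2 (-0.37) and KM3 (-0.073) were then negative. Of 26 libraries, 12 were nearest their own animal. No pair of libraries was a duplicate (smallest chi-square per gene 5.96).

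Named genes were the 4 of smallest p in each direction where no gene was called for side, the 15 called genes of widest spread between animals, list members with the smallest p or highest level, the 10 most abundant nuclear genes, the sex chromosome genes, and the 5 largest batch differences in each direction, at an average log2 CPM of at least 1. All 17 immediate early genes were named. Gene lists and members were chosen with earlier results of these data known. The tests were tested on simulated data. Alternatives were RLE scaling, other filters, limma voom, DESeq2 1.42.0, a robust fit, leaving out each animal, 1 sex, 1 batch or 1 side. Leaving out CM1 and KM2, and the length index as a covariate, were chosen after seeing the data. Some items of the lists are not reported here.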

Additional observations from a re-analysis of the deposited data

Results flagged for a closer look

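For 18 measures, the highest and lowest library were compared with the rest of their sex and side (72 groups of 6 or 7 libraries), and 14 lay far from the others. Chance alone gives about 1 in 20 groups, but 12 of the 14 are genes named for their wide spread between animals, so that rate is no measure for them. Among right punches of females, KF3 had 2.35% mitochondrial counts (next 4.81%) and GF3 had 19.5 M counts (next 16.8). In the same group Hba-a1 stood at 0.196 CPM in GF2 (next 5.2).

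Zfp970 stood at 1.64 CPM in the left and 0.993 in the right punch of KF3 (next 5.53 and 7.08), and at 0.0 in both punches of GM2 (next 5.38 and 2.56). Gpx3 stood at 80.3 CPM in the right punch of EM3 (next 4.83). Tpr stood at 15.8 and 8.0 CPM in the left and right punch of KF3 (next 82.7 and 76.1) and at 12.4 in the right punch of KM3 (next 81.2). Akap9 stood at 16.4, 7.24 and 10.5 CPM in the same libraries (next 77.1, 71.6 and 73.2).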

How the results depend on the processing

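The count of 0 for side held under voom, DESeq2, RLE scaling, 1 sex or 1 batch, each animal left out (0 to 0), CM1 and KM2 left out, and the length index as a covariate. It was 8 without the low count filter. Without the replicate block, the paired comparisons of side and of side by sex both stayed at 0. Side by sex was 14 without the filter, 1 with DESeq2 and 0 to 1 on leaving out each animal (1 without KF3). The animal count of 130 was 2004 without the filter, 1111 with DESeq2 (which called all 130), 846 without CM1 and KM2 (126 shared), 1356 with the length index (130 shared), 4376 with all 12 animal terms, where sex and batch enter, and 79 in batch A alone (75 shared). Leaving out each animal gave 77 (EM2) to 250 (CM1). The sex count was 7 to 8 on leaving out each animal and 6 with left punches alone. The batch count was 8149 to 9673 on leaving out each animal, 6466 with right punches alone and 5920 with left ones. Genes at 1 CPM numbered 15538 to 15602. No called gene and no count reversed. Of the list medians for side, oligodendrocyte precursors went from 0.05 to -0.01 without CM1 and KM2, red cells from -0.16 to 0.13 in females, and choroid plexus from 0.1 to -0.17 in males and -0.21 in batch B. Depth limits genes of a few counts, such as Xist in males, and 4 animals carry batch B. The causes of these moves were not tested.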
